A study of Rattus norvegicus with 16 samples.

Results

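Potassium channel genes were taken as every probe set on the array whose platform annotation gives 1 gene symbol starting with Kcn, with Kcnj1 left out. The array holds 79 such probe sets for 53 genes, out of 8740 probe sets that are not controls. Of these 8740, 7006 have 1 symbol and stand for 4736 genes. A probe set is a group of short oligonucleotides that reports the abundance of a transcript as 1 signal intensity. Changes were taken between kidneys for 1 probe set at a time. Signals were ranked between probe sets to leave out the dimmest and to pick the probe set that stands for a gene. Such ranks were not read as an order of transcript abundance. Each of 8 rats gave both kidneys, the left as control. The titles of the right kidney arrays name ACTH (adrenocorticotropic hormone, which drives glucocorticoid secretion by the adrenal cortex) in rats 1 and 5. They name DEX in rats 3 and 7, and saline in rats 2, 4, 6 and 8. A right kidney is called given a treatment where its title names it. The titles do not say whether the treatment went to that kidney or to the whole rat. The labels do not spell out DEX, do not give the dose, route, duration, strain, sex or age, and do not say whether the hormones reached the left kidney. The array titles name 4 saline rats and the series description 2; the titles were followed.

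Potassium channels are membrane pores that let potassium ions leave or enter cells and so set the membrane potential. Kidney tubule cells use them to recycle potassium across the basolateral membrane, which keeps the sodium pump running, to hold the driving force for sodium-coupled uptake in the proximal tubule, and to secrete potassium into the urine in the distal nephron. The Kcn genes fall into inward rectifiers (Kcnj), tandem-pore leak channels (Kcnk), voltage-gated channels (Kcna, Kcnb, Kcnc, Kcnd, Kcnf, Kcng, Kcns, Kcnv, the Kcnq group and the ether-a-go-go group Kcnh), calcium- or sodium-activated channels (Kcnma, Kcnn, Kcnt) and accessory subunits (Kcne, Kcnab, Kcnmb) that tune a pore made by another gene. The arrays were made from whole kidney RNA, in which fewer cells of a type and less RNA per cell cannot be told apart.

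The kidneys carried their own landmarks. The proximal tubule marker Slc34a1 had a mean signal of 5622, the thick limb marker Umod 2522 and the collecting duct marker Aqp2 1252. Array medians lay between 76.0 and 82.1. The left kidneys fell into 2 sets, rats 1 to 4 and rats 5 to 8, whose profiles correlated at a mean r of 0.385 within a set and -0.537 between sets after each probe set was centred. The labels do not name these sets, which were found from the data, and each holds 1 ACTH rat, 1 DEX rat and 2 saline rats.

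After the 40% of probe sets with the lowest mean log2 signal were left out (the dimness limit, or brightness filter), 29 of the 79 potassium channel probe sets remained, for 22 of the 53 genes. The other 31 genes were below that limit with all their probe sets. Of all 7006 probe sets with 1 symbol, 4408 were above the limit, a larger share than among the potassium channel probe sets. Of the inward rectifiers, 5 of 14 genes were above it (Kcnj4, Kcnj8, Kcnj11, Kcnj15 and Kcnj16), and Kcnj2, Kcnj3, Kcnj5, Kcnj6, Kcnj9, Kcnj10, Kcnj12, Kcnj13 and Kcnj14 were below. All 3 tandem-pore genes on the array, Kcnk1, Kcnk3 and Kcnk5, were above it, as were both Kcnq genes, Kcnq1 and Kcnq3. The ether-a-go-go group had 4 of 8 genes above it (Kcnh2, Kcnh3, Kcnh4 and Kcnh8).

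The classical voltage-gated families had 4 of 17 genes above the limit, Kcna5, Kcna6, Kcnd3 and Kcnf1. Kcna6 passed only through 1 left kidney, described further on, and is still counted among the 22 genes and 29 probe sets. The genes of this group below the limit included Kcna1, Kcna2, Kcna3, Kcna4, Kcnb2, Kcnc1 and Kcnd2, several of which are best known from brain and heart. Kcnn1, which forms a small-conductance calcium-activated channel, was the 1 gene of 4 above it in the ion-activated group, and Kcnma1, the pore of the large-conductance calcium-activated channel, was below. Among accessory subunits 3 of 5 genes were above it, Kcne1, Kcnab2 and Kcnmb1. The members nearest the limit on the upper side were Kcnf1, with a mean signal of 62.4 over the 16 arrays, 1 of the probe sets of Kcnd3 at 62.7 and 1 of Kcnj4 at 65.4. On the lower side they were Kcnab3 at 60.4, Kcns1 at 59.8 and Kcnj10, the distal tubule partner of Kcnj16, at 58.5. Being below the limit says only that the probe set was dim on this array, not that the gene was not transcribed.

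**Figure D1:**
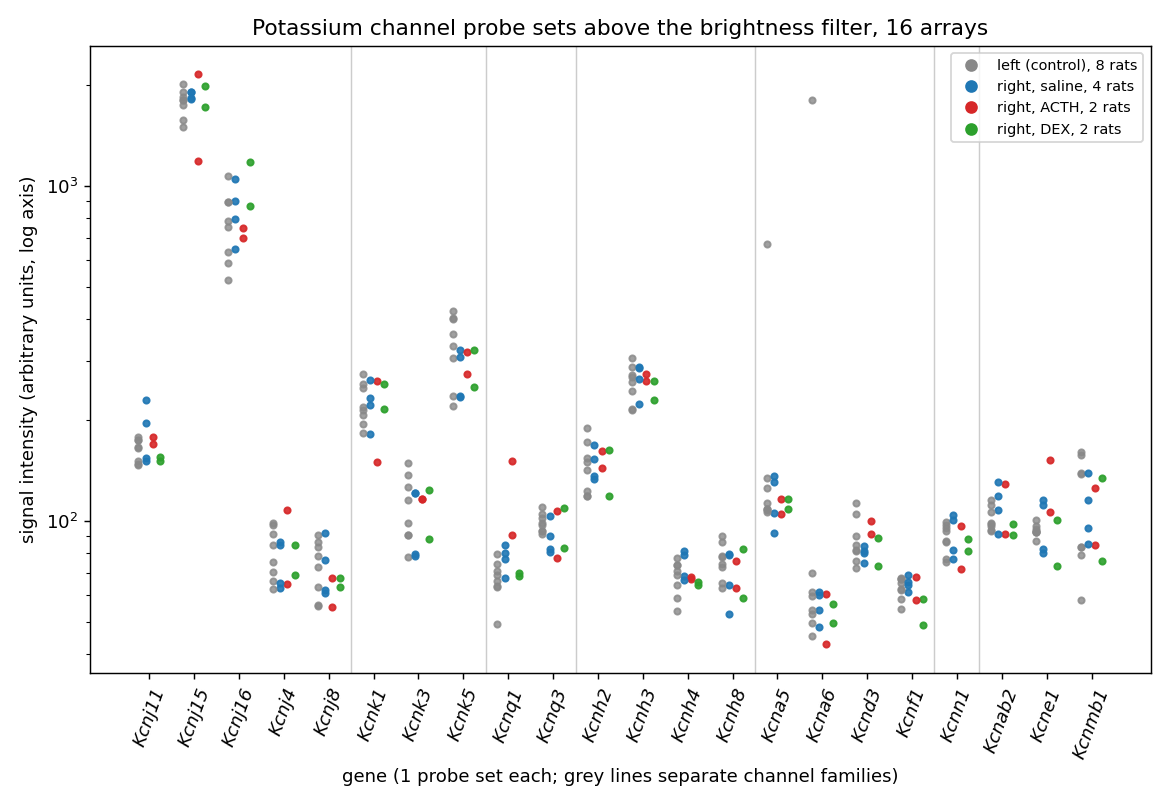
Signal intensity (arbitrary units, log axis) of the 22 potassium channel genes above the brightness filter in each of the 16 kidneys, 1 probe set per gene, ordered by family, with grey points for left kidneys and blue, red and green points for right kidneys given saline, ACTH or DEX. Kcnq1 lies at 91.0 and 151 in the right kidneys given ACTH, and Kcna6 and Kcna5 have 1 left kidney at 1796 and 672.

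Kcnq1 was the 1 potassium channel gene called higher with ACTH, though the call sat at the threshold. Kcnq1 encodes a voltage-gated pore that pairs with the subunit Kcne1 in the slow delayed rectifier current of the heart and at the luminal membrane of the proximal tubule. Its probe set (U92655_at) read 91.0 in the right kidney of ACTH rat 1 and 151 in that of ACTH rat 5. The left kidneys ranged from 49.1 to 79.9 with a median of 67.3. Both ACTH kidneys were therefore above every left kidney. The right kidneys given saline read 67.4, 84.6, 76.8 and 80.2 in rats 2, 4, 6 and 8, and those given DEX read 68.3 and 69.7, so the ACTH kidneys were also above all 6 of these.

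On the log2(signal + 16) scale, on which all changes are given and which understates the change of dim genes, Kcnq1 was higher in the right than in the left kidney by 0.72 and 0.95 in ACTH rats 1 and 5. The saline rats gave 0.06, 0.30, 0.04 and 0.00, and the DEX rats -0.01 and 0.11. The ACTH rats did not overlap the saline or the DEX rats, which overlapped each other. Of all tested probe sets, 7.82% had both ACTH rats above all saline rats. The share for ACTH against DEX rats was not counted. The ACTH effect, the mean right minus left difference in ACTH rats less the mean in saline rats, was 0.73 ± 0.14 (SE of the limma fit, 2 ACTH and 4 saline rats), or 1.66-fold, with a 95% interval of 0.42 to 1.04 and an adjusted p of 0.0492. Right against left within the ACTH rats it was 0.83 ± 0.12 (adjusted p = 0.00258, limma). Within rats 1 to 4 the ACTH effect was 0.54 and within rats 5 to 8 it was 0.93. Kcnq1 was the 1 member called of 29 tested for an ACTH effect, beside 0.496% of all 5244 probe sets.

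The call for the ACTH effect on Kcnq1 sat at the threshold. The effect stayed between 0.61 and 0.85 when each rat was left out, but the limma adjusted p then ran from 0.0596 to 0.150 and passed in none of the 8 fits. It was also lost when dimness was judged by the mean of the linear signals in place of the mean of the log2 values (limma adjusted p = 0.0535). The log2 mean was settled on, to match earlier processing of these data, after both results had been seen.

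Several marker lists moved in the same rats. For fat, smooth muscle and mesangium, and distal convoluted and connecting tubule, the list's mean log2 signal rose further from left to right in both ACTH rats than in any other rat, and for thick ascending limb and leukocyte markers it fell further. Of 10 fat markers listed, 9 were on the array and 8 were tested, and all 8 had positive ACTH effects, with 0 called by limma and 6 with an unadjusted p under 0.05. Their mean log2 signal ran from 7.19 to 8.55 in the left and 7.67 to 10.2 in the right kidneys of the ACTH rats. In the saline rats it ran from 6.92 to 8.34 and from 6.96 to 7.52, and in the DEX rats from 8.19 to 8.32 and from 7.01 to 7.09. With this mean as a covariate the ACTH effect on Kcnq1 was 0.84 ± 0.20 (limma adjusted p = 0.108). From left to right the fat mean changed by 1.63 and 0.48 in ACTH rats 1 and 5. The changes were 0.45, -0.31, -1.05 and 0.24 in saline rats 2, 4, 6 and 8, and -1.18 and -1.23 in DEX rats 3 and 7.

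Smooth muscle and mesangium markers had a mean right minus left change of 0.25 in ACTH rat 1, 0.36 in ACTH rat 5 and -0.14 to 0.02 in the other 6 rats. Their mean was 7.37 and 7.41 in the right kidneys given ACTH, 7.00 to 7.23 with saline and 7.08 to 7.24 with DEX. Of 6 tested (8 listed), 5 had positive ACTH effects, with 0 called by limma and 3 at an unadjusted p under 0.05. The thick ascending limb mean changed by -0.42 and -0.23 in the ACTH rats and by -0.11 to 0.33 in the others, and over right kidneys it ran from 8.79 to 8.92 with ACTH, 8.82 to 9.45 with saline and 8.96 to 9.50 with DEX. All 4 tested (7 listed) had negative ACTH effects, with 0 called by limma and 1 at an unadjusted p under 0.05. The leukocyte mean changed by -0.37 and -0.19, against -0.13 to 0.10 in the others, and 2 of 3 tested markers had negative ACTH effects, with 0 called by limma and 1 at an unadjusted p under 0.05.

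Right over left within the ACTH rats, where Kcnq1 was also called, limma called the distal convoluted and connecting tubule markers Calb1 (0.77 ± 0.16) and Klk1 (0.50 ± 0.12) and the smooth muscle marker Tagln (0.60 ± 0.14) higher, and the thick limb marker Egf (-0.78 ± 0.17) lower. It called 0 fat, 0 collecting duct and 0 leukocyte markers there, with 6, 4 and 2 at an unadjusted p under 0.05. The part of these cell types in the Kcnq1 change was not tested. The fit with the fat covariate cannot separate fat from treatment. The fat mean rose most in the ACTH rats (1.63 and 0.48) and fell most in the DEX rats (-1.18 and -1.23).

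DEX gave no such change of Kcnq1. Its DEX effect was -0.05 ± 0.14 with a 95% interval of -0.36 to 0.26. The difference between the ACTH and DEX effects was 0.78 ± 0.17 (limma adjusted p = 0.0612), which did not pass the threshold of 0.05. In the saline rats the right kidney exceeded the left by 0.10 ± 0.08.

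Kcne1, the accessory subunit named above, was high in 1 of the same kidneys but its ACTH effect did not pass the test. Its probe set above the limit (D10709exon_s_at) read 106 in the right kidney of ACTH rat 1 and 151 in that of ACTH rat 5. Left kidneys had a lowest value of 87.3, a median of 93.0 and a highest of 100.5. The right kidneys of saline rats 2, 4, 6 and 8 read 115, 80.2, 111 and 82.2, and those of DEX rats 3 and 7 read 100.2 and 73.4. ACTH rat 5 was the highest of the 16 arrays, whereas ACTH rat 1 lay among the saline kidneys.

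The right minus left changes of Kcne1 were 0.24 and 0.60 in the ACTH rats and 0.22, -0.19, 0.13 and -0.14 in the saline rats. Both ACTH rats were above all saline rats, narrowly so in ACTH rat 1. The same held for 7.82% of all tested probe sets. The ACTH effect was 0.42 ± 0.18 (95% interval 0.03 to 0.80, limma adjusted p = 0.479) and the DEX effect -0.09 ± 0.18. The second Kcne1 probe set (M22412_at), below the dimness limit, read 64.6 in the right kidney of ACTH rat 5 and between 26.8 and 41.5 in the other 15 kidneys. Both Kcne1 probe sets and Kcnq1 thus had their highest value in the same kidney. In that kidney the mean log2 signals of collecting duct and of distal convoluted and connecting tubule markers were also higher than in its left partner, by 0.68 and 0.69, against changes of 0.29 or less in the other 7 rats. The erythrocyte mean was higher there by 0.79, against rises of 0.33 or less in the other 7 rats. All 3 tested erythrocyte markers had positive ACTH effects over saline, with 0 called by limma and 0 at an unadjusted p under 0.05. All 7 tested collecting duct markers and all 4 tested distal convoluted and connecting tubule markers had positive ACTH effects over saline, 0 of them called by limma in that comparison and 2 of each list with an unadjusted p under 0.05. Over right kidneys the collecting duct mean ran from 8.69 to 9.34 with ACTH, 8.72 to 8.81 with saline and 8.63 to 8.64 with DEX, and the distal convoluted mean from 9.54 to 10.1, 8.98 to 9.97 and 9.19 to 9.77. The part of these cell types in the Kcnq1 and Kcne1 values was not tested.

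**Figure D2:**
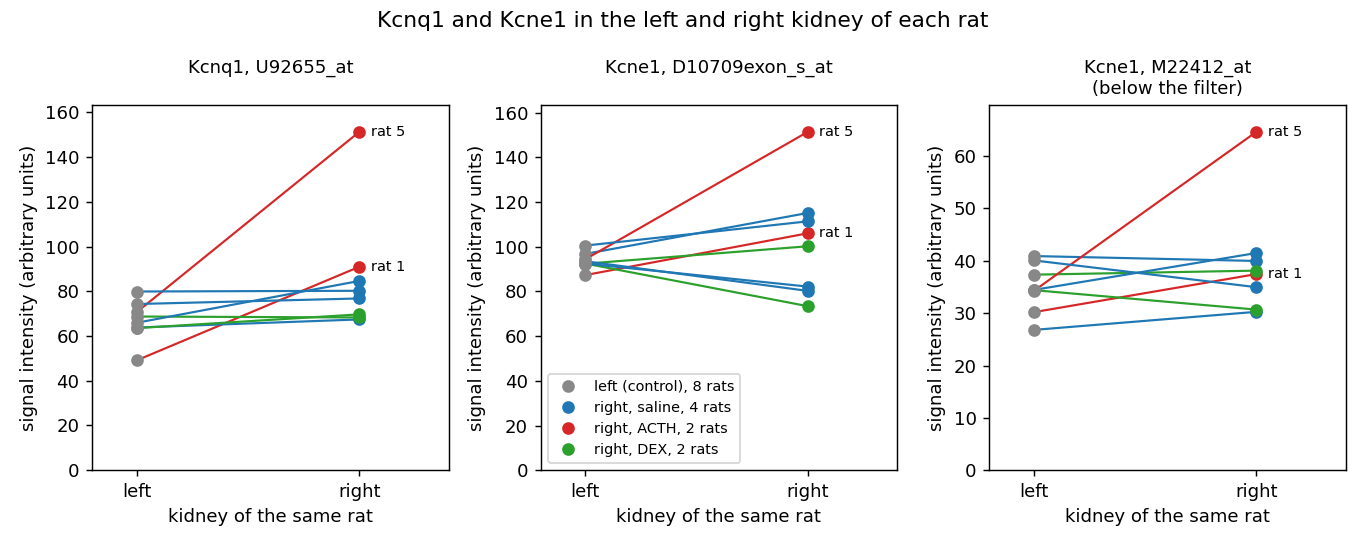
Signal intensity (arbitrary units) of Kcnq1 and of both Kcne1 probe sets, 1 panel each, in the left (grey) and right kidney (blue for saline, red for ACTH, green for DEX) of each rat, with a line joining the kidneys of 1 rat. Kcnq1 rises to 91.0 and 151 in the ACTH rats, and ACTH rat 5 is highest for all 3 probe sets.

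The other members showed small ACTH effects with wide intervals. Over the 29 probe sets the median ACTH effect was -0.03, beside -0.00 for all tested probe sets, and 14 were higher and 15 lower. Their median size was 0.12, beside 0.13 for all. Right minus left changes of both ACTH rats were above those of all 4 saline rats for 3 members (Kcnq1, Kcne1 and 1 probe set of Kcnd3), beside 7.82% of all tested probe sets, and below them for 0 members, beside 7.84%. Leaving aside Kcnq1 and the probe sets of Kcna5 and Kcna6, which turn on 1 kidney described further on, the remaining 26 ranged from -0.31 for Kcnj15 to 0.42 for Kcne1, with a lowest limma adjusted p of 0.479. In 25 of these 26 the 95% interval lay within a change of 1 in either direction. The exception was Kcnk5.

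Kcnd3, the pore of a transient A-type current, had 2 probe sets above the limit. The first (U92897_s_at) read 91.5 and 99.8 in the right kidneys given ACTH, 81.2, 84.3, 79.9 and 74.9 in those given saline, and 88.7 and 73.2 in those given DEX. The ACTH kidneys were the highest of the right kidneys, but left kidneys ran from 72.1 to 113 and overlapped them. The ACTH effect was 0.34 ± 0.15 (limma adjusted p = 0.489), and the other Kcnd3 probe set gave 0.12 ± 0.17.

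Kcnk5 and Kcnk3 encode acid-sensitive leak channels, and Kcnk5 sits in the basolateral membrane of the proximal tubule. Kcnk5 read between 221 and 421 across the left kidneys, with a median of 346. Its right minus left changes in the saline rats alone were -0.74, 0.52, -0.59 and -0.10. The ACTH effect of 0.36 ± 0.30 and the DEX effect of -0.28 ± 0.30 were within this spread, and their difference of 0.64 ± 0.35 had a limma adjusted p of 0.512. Kcnk3 had an ACTH effect of 0.26 ± 0.14 and a DEX effect of -0.09 ± 0.14. Kcnk1, a weakly rectifying leak channel, gave -0.13 ± 0.19 and 0.18 ± 0.19.

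Kcnj15 and Kcnj16 are inward rectifier subunits, and Kcnj16 makes channels at the basolateral membrane by pairing with Kcnj10 or Kcnj15. Kcnj15 (rc_AA893192_at) read 2148 in the right kidney of ACTH rat 1, the highest of the 16 arrays, and 1183 in that of ACTH rat 5, the lowest. Left kidneys ran from 1501 to 2013 with a median of 1805, the right kidneys given saline read 1909, 1906, 1824 and 1820.3, and those given DEX read 1714 and 1979. The ACTH rats thus moved apart, and the ACTH effect of -0.31 ± 0.19 (limma adjusted p = 0.667) became 0.01 without ACTH rat 5. The DEX effect was 0.04 ± 0.19.

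The first Kcnj16 probe set (rc_AA892312_at) read 872 and 1173 in the right kidneys of DEX rats 3 and 7, 700.4 and 747 in those of ACTH rats 1 and 5, and 649, 902, 798 and 1047 in those given saline. Left kidneys ran from 525 to 1068. The right kidney of DEX rat 7 was the highest of the 16, but DEX rat 3 lay among the saline kidneys. The DEX effect was 0.21 ± 0.19, and it was 0.24 ± 0.20 in the second Kcnj16 probe set (X83581cds_at). The ACTH effects were -0.07 ± 0.19 and -0.06 ± 0.20.

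The remaining inward rectifiers showed no change past the spread of the fit. Kcnj8, the pore of vascular ATP-sensitive potassium channels, read 55.4 to 92.2 over the 16 kidneys and had an ACTH effect of -0.14 ± 0.18 and a DEX effect of -0.28 ± 0.18. Kcnj11, which forms such channels in pancreatic beta cells and muscle, gave ACTH effects of -0.11 ± 0.20 and -0.04 ± 0.20 and DEX effects of -0.13 ± 0.20 and -0.18 ± 0.20 in its probe sets D86039_at and D86039_g_at. Kcnj4, a strong rectifier, gave ACTH effects of 0.14 ± 0.13 and 0.23 ± 0.19 and DEX effects of 0.03 ± 0.13 and 0.22 ± 0.19 in X83580cds_s_at and X87635_at. Their signs matched within each gene, but every 95% interval included 0.

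Kcnh2, the pore of the rapid delayed rectifier current of the heart, and its relatives Kcnh3, Kcnh4 and Kcnh8 had effects near 0. Both probe sets of Kcnh2 (U75210_s_at and Z96106_at) gave ACTH effects of 0.03 ± 0.15 and -0.06 ± 0.15 and DEX effects of -0.06 ± 0.15 and -0.14 ± 0.15. Those of Kcnh3 (AF073892_s_at and AJ007627_at) gave 0.03 ± 0.16 and 0.02 ± 0.16 with ACTH and -0.15 ± 0.16 and -0.10 ± 0.16 with DEX. Kcnh4 had -0.13 ± 0.18 with ACTH and -0.05 ± 0.18 with DEX, and Kcnh8 had -0.04 ± 0.18 and -0.12 ± 0.18. The 95% intervals of all 6 probe sets of this group included 0 for both hormones.

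Kcnq3, a subunit of the neuronal M-current, read 77.6 to 109.6 over the 16 kidneys and gave 0.08 ± 0.16 with ACTH and 0.09 ± 0.16 with DEX. Kcnn1 read 71.9 to 104 and gave -0.07 ± 0.14 and -0.11 ± 0.14. Kcnf1, a subunit that makes no channel alone and modifies others, read 48.8 to 69.1 and gave -0.03 ± 0.14 and -0.05 ± 0.14. Among the accessory subunits other than Kcne1, Kcnab2, a cytoplasmic subunit of voltage-gated channels, read 90.8 to 131 and had -0.08 ± 0.16 and -0.24 ± 0.16. Kcnmb1 gave -0.24 ± 0.18 and -0.30 ± 0.18 in AB010963_s_at and -0.11 ± 0.21 and -0.19 ± 0.21 in AF020712_at. None of these effects was called by limma.

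**Figure D3:**
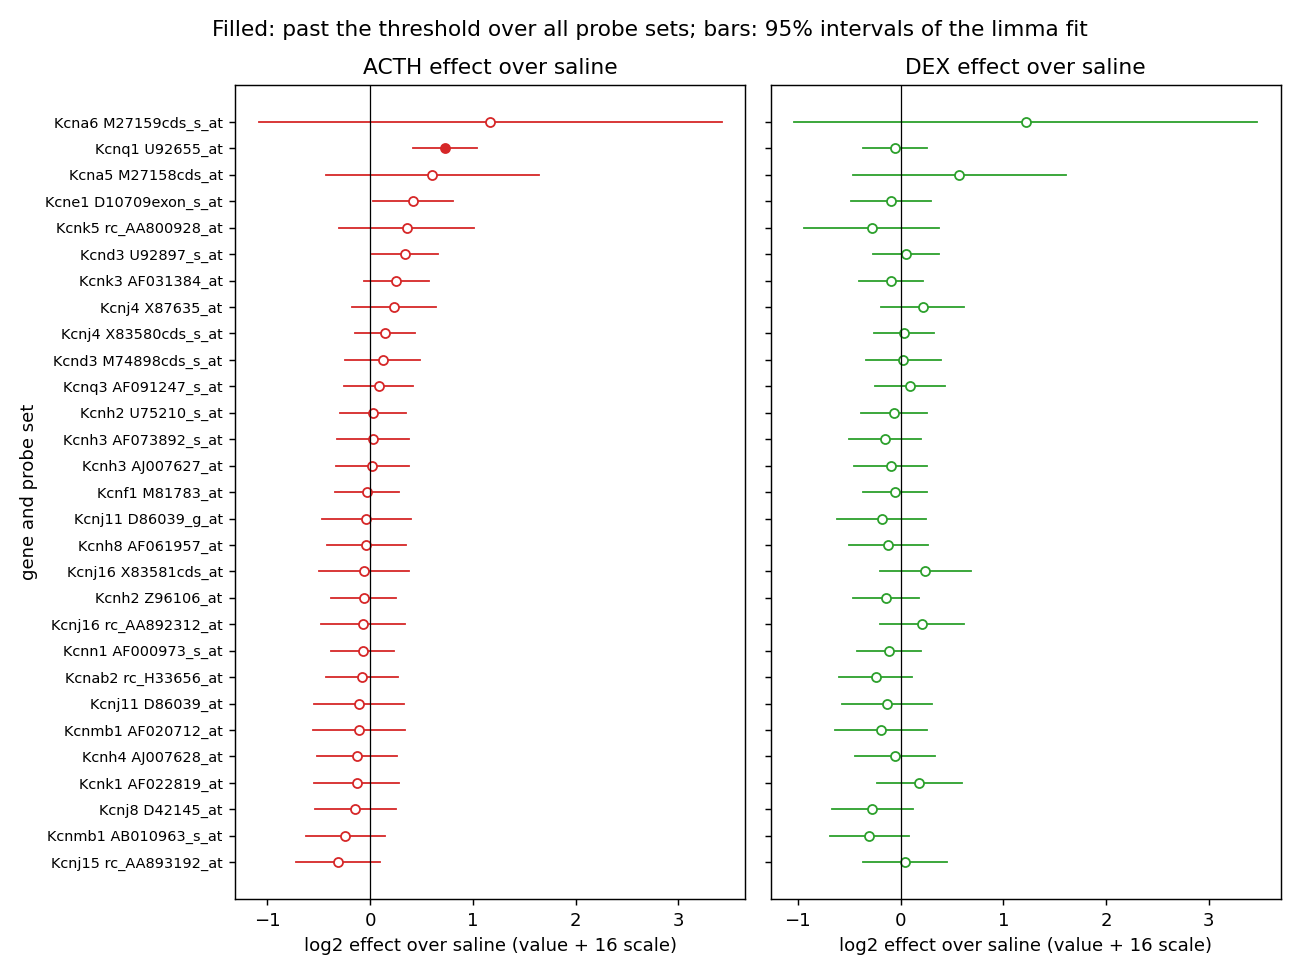
ACTH and DEX effects over saline (log2 scale) for the 29 potassium channel probe sets, with 95% intervals of the limma fit as bars and a filled point where the adjusted p passed the threshold. Kcnq1 stands at 0.73 for ACTH and -0.05 for DEX, 26 of the 29 ACTH and 29 of the 29 DEX intervals include 0, and Kcna6 and Kcna5 have the widest.

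DEX changed no member past the threshold. The limma test called 0 of the 29 members, beside 0% of all tested probe sets, and 0 of the 29 had an unadjusted p under 0.05, against 154 of the 5244. The median DEX effect was -0.06, beside -0.00 for all, with 11 members higher and 18 lower and a median size of 0.13, beside 0.10. Both DEX rats were above all saline rats for 0 members, beside 6.08% of probe sets, and below for 0, beside 6.33%. Outside Kcnq1, Kcna5 and Kcna6, the effects ran from -0.30 in 1 probe set of Kcnmb1 to 0.24 in Kcnj16, and 26 of 26 intervals lay within a change of 1 in either direction.

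For the difference between the ACTH and DEX effects, 0 of the 29 members were called by limma, beside 0.572% of probe sets, and 2 of the 29 had an unadjusted p under 0.05, Kcnq1 and Kcne1, against 639 of the 5244. Kcne1 gave 0.51 ± 0.21 (adjusted p = 0.357). The ACTH effect was above the DEX effect in 22 of the 29 members, with a median difference of 0.08, beside 53.0% of all probe sets and a median of 0.02. Kcnk3 gave 0.35 ± 0.17, Kcnj15 -0.36 ± 0.22, Kcnk1 -0.31 ± 0.22, the first Kcnj16 probe set -0.28 ± 0.22 and Kcnh4 -0.07 ± 0.21. Both effects share the saline rats.

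Right against left kidney, 0 members were called in the saline rats, beside 0%, and 1 had an unadjusted p under 0.05, Kcna5, against 196 of the 5244. In the ACTH rats 1 member was called (Kcnq1), beside 3.57%. In the DEX rats 0 were called, beside 0%, and 1 had an unadjusted p under 0.05, Kcnj16 at 0.34 ± 0.15 (limma adjusted p = 0.836), against 310 of the 5244. Besides Kcna5, Kcna6 and Kcnq1, the saline rats ranged from -0.23 ± 0.17 for Kcnk5 to 0.14 ± 0.11 for Kcnj16. In the ACTH rats Kcne1 was 0.42 ± 0.15 (limma adjusted p = 0.131) and Kcnj15 -0.23 ± 0.15, and in the DEX rats Kcnk5 was -0.51 ± 0.25 and Kcnj8 -0.25 ± 0.15.

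Genes that work with these channels had effects of both signs. Of 37 listed partners of potassium handling (sodium pump subunits, FXYD regulators, potassium-chloride cotransporters, sulfonylurea receptors and kinases), 23 were on the array and 17 were tested. ACTH effects were positive in 9 and negative in 8, with a median of 0.03, and limma called 0, with 1 at an unadjusted p under 0.05. DEX effects were positive in 8 and negative in 9, with a median of -0.06, and limma called 0, with 2 at an unadjusted p under 0.05. Fxyd1, a regulator of the sodium pump, gave 0.49 ± 0.16 with ACTH (limma adjusted p = 0.279). Nedd4, a ubiquitin ligase of transport proteins, gave -0.47 ± 0.24 and the pump subunit Atp1b3 -0.25 ± 0.18 with ACTH. Sgk1, a corticosteroid-inducible kinase that raises sodium and potassium transport, gave 0.87 ± 0.28 with DEX (limma adjusted p = 0.999). Abcc8, the sulfonylurea receptor that pairs with Kcnj11, gave -0.40 ± 0.17 with DEX, and Fxyd1 -0.27 ± 0.16.

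Kcna6 and Kcna5, voltage-gated delayed rectifier genes, were far higher in the left kidney of saline rat 8 than in any other kidney. The Kcna6 probe set (M27159cds_s_at) read 1796 there and between 42.8 and 70.1 in the other 15 kidneys. The Kcna5 probe set (M27158cds_at) read 672 there and between 92.1 and 136 in the others. The right kidney of the same rat read 48.3 and 136. Kcna5, Kcna1 and Kcna6 are neighbours in the rat genome in that order, with 1 protein-coding gene, Kcna1, between the outer pair.

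The second Kcna6 probe set (X17621cds_at), below the dimness limit, did not share the peak. It read 61.2 in the left kidney of rat 8 and 47.5 to 60.3 in the other kidneys of rats 5 to 8, while rats 1 to 4 read 25.5 to 41.2. In the left kidney of rat 8, 3 of the tested probe sets exceeded every other array more than 4-fold, and the other one besides Kcna6 and Kcna5 was Hoxc4, at 932 against at most 171. The right kidney of ACTH rat 1 had 8 such probe sets and the right kidney of rat 8 had 5. The left kidney of ACTH rat 1 had 2, that of DEX rat 7 had 1, and each remaining kidney had 0. Outside the left kidney of rat 8, 0 potassium channel probe sets were among them.

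That 1 kidney sets the fitted values of both genes. The ACTH effect of Kcna6 was 1.17 ± 1.04 and its DEX effect 1.22 ± 1.04. Without rat 8 they were -0.03 and 0.02. For Kcna5 the ACTH effect of 0.61 ± 0.48 and the DEX effect of 0.57 ± 0.48 became 0.08 and 0.05. The saline right over left change was -1.22 ± 0.60 for Kcna6 and -0.61 ± 0.28 for Kcna5, and -0.02 and -0.09 without rat 8. Over the other 7 left kidneys Kcna6 averaged 56.2 ± 8.27 (SD, n = 7) and Kcna5 115 ± 10.8 (SD, n = 7). Kcna6 was above the dimness limit only through that kidney: without it, or on the median over arrays, it was below.

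**Figure D4:**
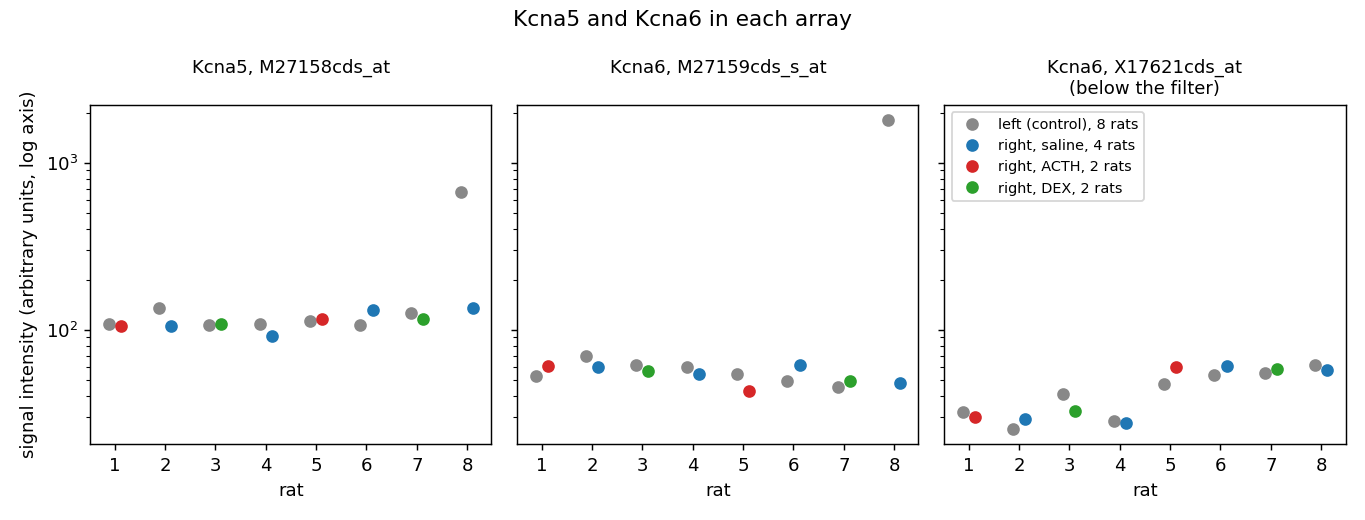
Signal intensity (arbitrary units, log axis) of Kcna5 and of both Kcna6 probe sets, by rat, with grey points for left kidneys and blue, red and green points for right kidneys given saline, ACTH or DEX. The left kidney of rat 8 reads 672 for Kcna5 and 1796 for the first Kcna6 probe set, and 61.2 for the second, among the other kidneys of rats 5 to 8.

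Some members differed between the left kidneys of rats 1 to 4 and those of rats 5 to 8, all of them controls. Taking both directions together, members did so no more often than probe sets of the whole array. These values are a description with no test, since the sets were found in the same data. Rats 5 to 8 were all above rats 1 to 4 for 3 of the 29 members, beside 19.6% of all tested probe sets, and all below for 5, beside 16.2%. The 3 that were above were Kcnj16 (second probe set), Kcnk3 and 1 probe set of Kcnj4, and the 5 below were Kcnmb1, Kcnj11, Kcnh2, Kcnh3 and Kcnh4, each with 1 probe set. The other probe sets of Kcnh2 and Kcnj4 went the opposite way. Kcnh2 averaged 166 in rats 1 to 4 and 125 in rats 5 to 8 with U75210_s_at, but 106 and 130.4 with Z96106_at. Kcnj4 averaged 68.7 and 92.7 with X83580cds_s_at, but 71.1 and 61.1 with X87635_at.

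The second Kcnj16 probe set averaged 292 ± 33.5 (SD, n = 4) in the left kidneys of rats 1 to 4, with a range of 261 to 339, and 513 ± 75.2 (SD, n = 4) in rats 5 to 8, with a range of 412 to 591. The first averaged 633 ± 111 and 902 ± 129 (SD, n = 4 each), so both probe sets of Kcnj16 lay higher in rats 5 to 8, though the ranges of the first overlapped. Kcnk3 averaged 89.4 and 132.

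For Kcnmb1, the smooth muscle beta subunit of the large-conductance calcium-activated channel, 1 probe set (AF020712_at) averaged 149 ± 12.03 in the left kidneys of rats 1 to 4 and 76.0 ± 12.2 in rats 5 to 8 (SD, n = 4 each). Counting right kidneys too, the 8 kidneys of rats 1 to 4 read 116 to 160.5 and those of rats 5 to 8 read 57.9 to 95.4, without overlap. The other Kcnmb1 probe set averaged 101 and 87.2. Kcnj11 split in the same way: 1 probe set averaged 125 and 74.0, and the other 164 and 162. Kcnmb1 and Kcnj11 were thus lower in rats 5 to 8 in 1 probe set each and closer together in the other. Rats of both sets received each treatment, and the term for each rat in the fit takes this difference out of the hormone effects.

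**Figure D5:**
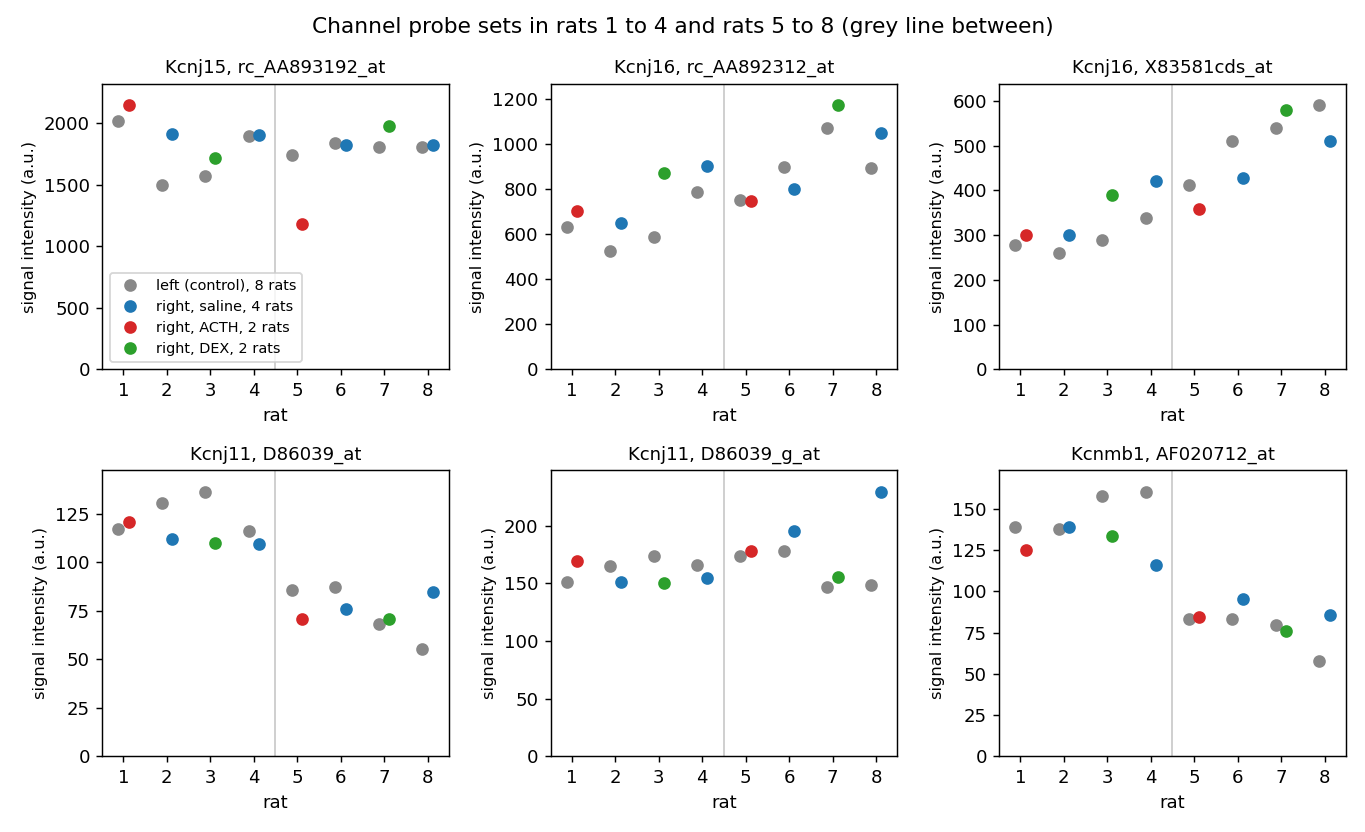
Signal intensity (arbitrary units) of Kcnj15, both probe sets of Kcnj16 and of Kcnj11, and 1 of Kcnmb1, by rat, with grey points for left kidneys, blue, red and green points for right kidneys given saline, ACTH or DEX, and a grey line between rats 1 to 4 and 5 to 8. In left kidneys both Kcnj16 probe sets average higher in rats 5 to 8, while Kcnmb1 (149 against 76.0) and 1 probe set of Kcnj11 (125 against 74.0) average lower, and Kcnj15 has its lowest value, 1183, in the right kidney of ACTH rat 5.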

How the data were processed

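The data are signal intensities of 16 kidneys on 1-colour arrays, 1 per probe set, as deposited by the authors on a linear scale (5.18 to 12664). Per the labels' protocols, total RNA was extracted with Tri-Reagent, cleaned on RNeasy columns and labelled with biotin. How the authors normalized the values, and with which software, is not given in the sources used here. Arrays have no read depth, and their number limits the precision.

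After removal of 59 control probe sets, all values were analysed as log2(value + 16), and the 40% of the 8740 others with the lowest mean log2 value (3496) were left out. The median log2 signals of the arrays spanned 0.11, so no further normalization was applied. Gene names came from the platform annotation, in which 7006 probe sets have 1 symbol, 308 have several and 1426 have none. The 5244 tested probe sets were fitted with limma 3.58.1 (R 4.3.3), with an intensity trend, a term for each rat, and terms for the right kidney and for ACTH and DEX in it (5 residual degrees of freedom, prior 7.34). P-values were two-sided and adjusted with the Benjamini-Hochberg procedure across the 5244 probe sets of a comparison, with a threshold of 0.05. The labels pair the kidneys of each rat, and left and right deviations from the group means correlated at 0.623 to 0.763 in the 8 rats. These correlations cannot test the pairing, because each treatment group mixes rats of both sets found in the left kidneys. The difference between the sets can enter the deviations of both kidneys. The 8 values are also not separate: rats 1 and 5 share the value 0.646, and rats 3 and 7 share 0.757.

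Signals are given in linear units, changes on the log2 scale, and a gene with several probe sets above the dimness limit is named with each. Further probe sets below the limit are described for Kcne1 and Kcna6. Kcnk3, Kcnab2, Kcnq3, Kcnh8 and Kcnd3 also had probe sets below it, which are not described. The genes named were the members with an adjusted p under 0.05, Kcnq1, and the 4 with the largest differences in each direction of a comparison (genes stand by their probe set of highest mean), with the effects of other members described by family. For partners they were the 3 with the smallest p for each hormone. Members set by 1 kidney or differing between rats 1 to 4 and 5 to 8 were singled out after their values were seen. The order of Kcna genes on the chromosome is from RefSeq's rat gene table. The members, lists and tests were chosen with earlier results of these data known. The fit was tested on simulated data. Alternatives were the pseudocount, the dimness limit, quantile normalization, the rat term, right kidneys alone, no trend, a right kidney term per set of rats, a fat marker covariate and leaving out each rat.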

Additional observations from a re-analysis of the deposited data

Results flagged for a closer look

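In the left kidney of saline rat 8 the Kcna5 signal was 672, while the other 7 left kidneys read 106 to 134, and the Kcna6 signal was 1796, while the others read 45.4 to 70.1. The gap to the nearest kidney made up 0.881 and 0.900 of the range of the 8 left kidneys. Of 44 groups checked for a sample that stands apart, 2 had one, and chance sets one apart in about 1 in 20 groups.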

How the results depend on the processing

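The ACTH effect on Kcnq1 kept its sign in 20 of 20 alternatives and its call in 4. It was 0.86 with a pseudocount of 1, 0.73 without a dimness limit, with the limit on the mean linear signal and without the intensity trend, 0.72 after quantile normalization, 0.52 in right kidneys alone, 0.84 with the fat covariate, and 0.61 to 0.85 when each rat was left out, and 0 potassium channel probe sets were called in each. The call held with a pseudocount of 64, a 20% limit, a limit on the median over arrays and a right kidney term per set of rats. With the limit at 60% Kcnq1 was too dim to be tested. The limits on the linear mean and on the median were added after the data had been seen. Without the pairing of kidneys by rat (no replicate block), the ACTH effect on Kcnq1 stayed 0.73 but had a limma adjusted p of 1.00 (0.999731), and limma called 0 probe sets for ACTH, 0 for ACTH minus DEX and 4 for right over left in ACTH rats (0 of them potassium channel probe sets).

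Probe sets called for ACTH were 12 after quantile normalization, 0 in right kidneys alone, 6 with the fat covariate and 9 to 114 when each rat was left out. For ACTH minus DEX they were 0 in right kidneys alone, 74 with the term per set (Kcnq1 among them, 0.78, 1 potassium channel probe set) and 2 to 100 when each rat was left out (Kcnq1 passed without rat 1, at 0.90). For DEX they were 0 to 3 on leaving out each rat. Right over left they were 1 in the saline rats under a pseudocount of 1, no limit, a 20% limit, quantile normalization, no trend or the median limit, and 4 with the fat covariate. In the ACTH rats they were 290 with the term per set and 119 to 272 on leaving out each rat, and in the DEX rats 0 to 4. The limit kept 55 potassium channel probe sets at 20% and 11 at 60%.

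None of the values that changed sign passed the threshold. In right kidneys alone the ACTH effect was -0.097 for Kcna6 and -0.049 for Kcna5, the DEX effect -0.057 for Kcna6, -0.031 for Kcna5 and 0.065 for Kcnk5, and ACTH minus DEX 0.042 for Kcnh4. With the fat covariate the ACTH effect was 0.23 for Kcnj8 and 0.070 for Kcnh4, the DEX effect -0.10 for Kcna5, ACTH minus DEX 0.29 for Kcnh4, and right over left 0.20 for Kcnj8 and 0.11 for Kcnh8 in ACTH rats and -0.054 for Kcnq1 in DEX rats. On leaving out each rat, the ACTH effect ran from -0.32 to 0.058 for Kcnk1, -0.63 to 0.0058 for Kcnj15 and -0.032 to 1.65 for Kcna6. The DEX effect ran from -0.11 to 0.014 for Kcnq1 and -0.0055 to 0.42 for Kcnj16, and ACTH minus DEX from -0.27 to 0.12 for Kcnh4. Right over left ran from -0.027 to 0.20 for Kcnj11 in saline rats, from -0.35 to 0.028 for Kcnk1 and -0.55 to 0.093 for Kcnj15 in ACTH rats, and from -0.45 to 0.074 for Kcnh8 and -0.0072 to 0.11 for Kcnq1 in DEX rats. The cause of these changes was not tested.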
